A study of Mus musculus with 3 samples.

Results

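A set of lipid-handling macrophage genes, 10 of the 31053 gene symbols in the raw count files, was followed through 3 mouse neuroblastomas: Apoe, Trem2, Gpnmb, Lpl, Fabp5, Abca1, Cd36, Npc2, Lgals3 and Spp1. They were chosen by name, with earlier results of these data known. Their level was read in the kept cells of each tumor, in 12 cell classes defined by other markers, and in the monocyte and macrophage subsets taken apart. The tumors came from TH-MYCN mice, in which a MYCN transgene is driven by the tyrosine hydroxylase promoter, so that tumors arise from the sympathetic lineage in an animal with an intact immune system. All mice were heterozygous for the transgene, each gave 1 whole tumor, and they were 62, 79 and 63 days old for tumors 1, 2 and 3. The tumors were cut, digested with a collagenase blend and DNase, and profiled by droplet single-cell RNA-seq (10x 3' chemistry), in which every captured RNA molecule carries a unique molecular identifier (UMI). No other group, such as wild-type animals, was compared. Each tumor is its own dissociation, so that age, dissociation and tumor cannot be told apart.

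Macrophages take up lipoproteins, dead cells and debris, break the lipid down in lysosomes, and then store it in droplets or return cholesterol to the outside. Several of these genes rise together in foam cells of the artery wall and in macrophages of injured brain, fat and liver, where Trem2 is known as a lipid-sensing receptor at the cell surface. Apoe and Abca1 are known targets of the LXR nuclear receptors, which respond to cholesterol load.

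Kept cells were the barcodes that the authors retained in their normalized files. They numbered 1914, 1221 and 2515 in tumors 1, 2 and 3, together 5650 cells of 13622 barcodes, with medians of 4282.5, 1594 and 1816 UMIs. Tumor 1 had 715 of the 1000 macrophage-like cells, against 106 in tumor 2 and 179 in tumor 3. Kept barcode sequences were shared 3 times between tumors 1 and 2 and 1 time between tumors 2 and 3. The macrophage-like class was named from 8 markers other than the members (among them Csf1r, Adgre1 and Lyz2), all of which were highest in it. Its subsets were named likewise: 260 classical monocyte-like cells with 6 of 6 markers highest (Ccr2, Ly6c2 and others), 353 nonclassical monocyte-like cells with 7 of 7 (Ace, Cd300e and others) and 126 tissue macrophage-like cells with 6 of 6 (C1qa, C1qb, C1qc, Mrc1, Mertk and Ms4a7). A subcluster of 261 cells had 4 of the tissue macrophage-like markers, but its median of 1267 UMIs was low and none of those markers was among its top 10 genes, which held Apoe and Gpnmb. It was therefore left unnamed and entered no test between subsets, although at lower and at higher resolution a subcluster of 185 cells with a median of 1349 UMIs was named tissue macrophage-like. Of the 7 markers of tumor-like cells 5 were highest in that class, and their UMIs were counted in every class. The summed level of the 7 tumor-like markers in T cell-like cells was 5.92%, 52.7% and 72.1% of that in the tumor-like cells of tumors 1, 2 and 3, and in tissue macrophage-like cells 1.52%, 14.5% and 23.2%.

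The first question was in which cells of the tumor these genes were expressed. The raw UMI counts of all cells of a class in a tumor were added up, and a class was compared with the average of the remaining classes, each weighted alike. Levels are given in CPM, the counts of a gene scaled to a common library size, after TMM scaling. Of the 10 genes, 9 were called higher in macrophage-like cells by edgeR's quasi-likelihood test with Benjamini-Hochberg adjustment at 0.05, where 12% of the 7808 genes tested were called higher. The median fitted log2 difference was 4.08 over the 10 genes and 0.23 over all genes tested. The remaining gene, Fabp5, was not called. All 10 had been picked as macrophage genes with earlier results of these data known. Their count and median therefore lean on that choice and are no independent support for the set. Trem2 and Gpnmb reached the filter on low counts only in macrophage-like sums, so that they were tested because of that class. The members were held out of the genes that formed the clusters, but cells and classes come from the same libraries, so a call places a gene in a class and is no independent evidence of that class. Fitted differences against classes without a UMI depend on the prior count and are no bounds.

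**Figure D1:**
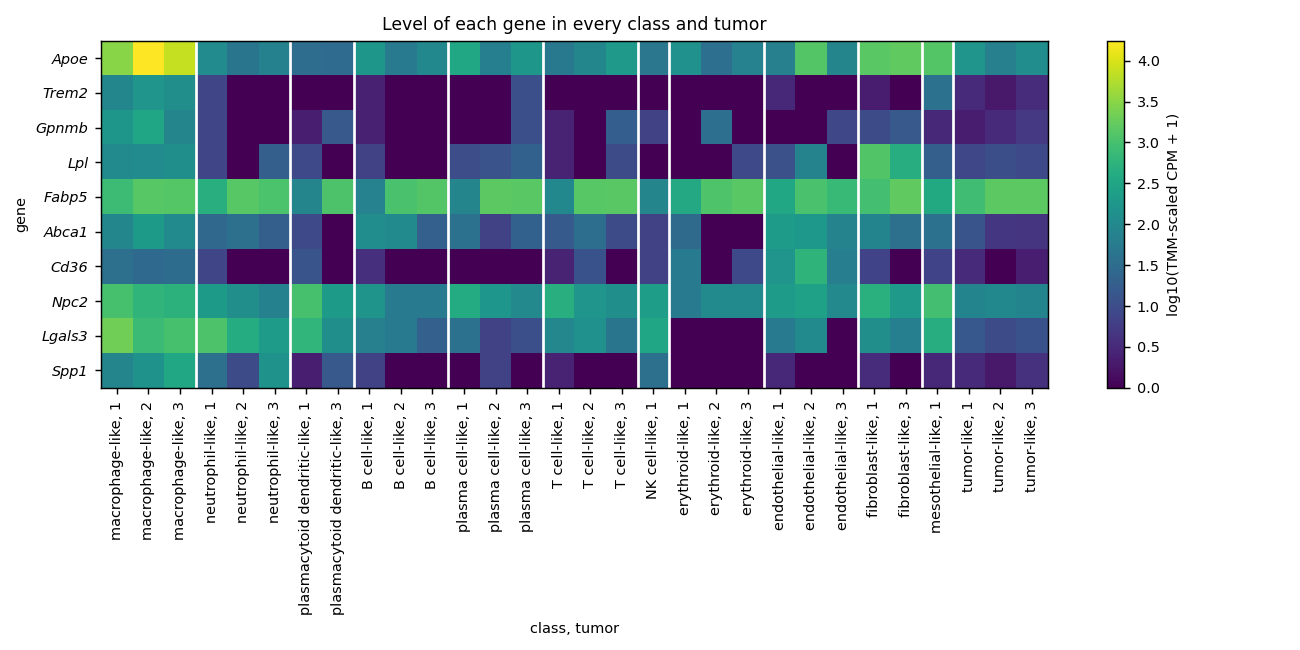
Level of each gene (rows) in every class and tumor with at least 10 cells (columns, 30 sums), as log10 of TMM-scaled CPM plus 1. For Apoe, Trem2 and Gpnmb all 3 macrophage-like columns stand above every other column, whereas Lpl is brightest in fibroblast-like, Cd36 in endothelial-like cells, and Fabp5 is bright across tumors 2 and 3.

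Trem2, the receptor, was rarely counted outside macrophage-like cells. Its level in them was 89.2, 165 and 126 CPM in tumors 1, 2 and 3. No UMI of Trem2 was found in T cell-like cells, whose 953518 UMIs allow a level of up to 3.15 CPM, and none in plasmacytoid dendritic-like, NK cell-like or erythroid-like cells. In tumor-like cells it stood at 2.29, 0.927 and 2.48 CPM, so that the ranges did not overlap. The fitted log2 difference from the mean of the other classes was 6.82 (SE 0.49, n = 3 tumors, edgeR adjusted p = 1.09e-08). Mesothelial-like cells, a single sum of 16 cells in tumor 1 whose cluster also had markers of macrophage-like cells, stood at 37.2 CPM, and 10 of their 18 Trem2 UMIs lay in 1 cell.

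Gpnmb, a transmembrane glycoprotein of lysosomes and phagosomes, was at 177, 312 and 84.2 CPM in macrophage-like cells and at most 34.8 CPM, on 1 UMI, in any other sum. The log2 difference was 5.76 (SE 0.48, edgeR adjusted p = 1.08e-08). Apoe, the secreted carrier that accepts exported cholesterol, was at 3066, 17524 and 7368 CPM, with the lowest level in tumor 1 and the highest in tumor 2. In CPM the 3 values spanned more than those of any other class, though as a ratio the endothelial-like values given below spanned more. All 3 lay above fibroblast-like cells, the next class, at 1413 and 1589 CPM in tumors 1 and 3. The log2 difference of Apoe was 5.82 (SE 0.51, edgeR adjusted p = 1.23e-08) against the mean of the other classes. In endothelial-like cells Apoe was at 68.8, 1258 and 84.2 CPM, and 121 of the 145 UMIs of tumor 2 lay in 1 cell. Against fibroblast-like cells directly it was 2.62 (SE 0.99, edgeR adjusted p = 0.0927) and passed only with tumor as a block (edgeR adjusted p = 0.0419, where 11.2% of genes were called higher).

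The members did not all have their highest level in macrophages. Lipoprotein lipase, encoded by Lpl, which frees fatty acids from lipoproteins, stood at 105, 112 and 130 CPM in macrophage-like cells, and was called higher there than in the mean of the other classes (log2 difference 3.71, SE 0.49, edgeR adjusted p = 3.48e-06), in 2 of 3 tumors. Fibroblast-like cells were higher in both tumors that had enough of them, at 1245 CPM in tumor 1 and 445 CPM in tumor 3. The direct comparison gave a log2 difference of -2.89 for macrophage-like minus fibroblast-like cells (SE 0.70, edgeR adjusted p = 0.0056), where 8.35% of genes were called lower. Fibroblast-like cells were also called higher than the mean of the other classes in Lpl (log2 difference 6.86, edgeR adjusted p = 2.53e-10) and Apoe (log2 difference 2.96, edgeR adjusted p = 2.68e-04), where 12.8% of genes were called higher. Fibroblast-like cells held 66.6% of the Lpl UMIs of tumor 1 with 2.46% of its cells and 946895 of the 12628163 UMIs of all genes in them. Macrophage-like cells held 31.2%, 48.9% and 42.9% of the Lpl UMIs in tumors 1, 2 and 3.

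Cd36, the scavenger receptor and fatty acid transporter, showed the same kind of order with another class on top. It was at 35.7, 27.4 and 30.2 CPM in macrophage-like cells and at 164, 564 and 63.2 CPM in endothelial-like cells, so that every endothelial value lay above every macrophage value. The log2 difference of macrophage-like minus endothelial-like cells was -3.05 (SE 0.74, edgeR adjusted p = 0.0059), where 7.42% of genes were called lower. Against the mean of all other classes Cd36 was nevertheless higher in macrophage-like cells (log2 difference 2.63, SE 0.59, edgeR adjusted p = 0.00239), in 2 of 3 tumors, and with DESeq2 it was not called (log2 difference 2.18, DESeq2 adjusted p = 0.0908). Abca1, the cholesterol exporter, was at 86.2, 207 and 107 CPM in macrophage-like and at 218, 182 and 77.2 CPM in endothelial-like cells. These ranges overlapped, and the direct difference was not called (log2 difference -0.30, SE 0.60, edgeR adjusted p = 0.91). Abca1 was called higher in macrophage-like (edgeR adjusted p = 4.35e-05), endothelial-like (edgeR adjusted p = 8.21e-06, with 11.7% of genes called higher) and B cell-like cells (edgeR adjusted p = 0.026, with 2.68% called higher), and lower in tumor-like cells (log2 difference -2.27, SE 0.61, edgeR adjusted p = 0.034, with 3.59% called lower).

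Npc2 and Lgals3 were also counted in other blood cells and in mesothelial-like cells. The single mesothelial-like sum, 16 cells of tumor 1, stood at 940 CPM of Npc2 and 438 CPM of Lgals3. Its Npc2 level lay above the macrophage-like mean of 713 CPM, though below the 1029 CPM of macrophage-like cells in tumor 1. Fibroblast-like cells had a mean of 346 CPM of Npc2. Npc2, the soluble lysosomal protein that hands cholesterol to Npc1, was at 1029, 586 and 523 CPM in macrophage-like cells, against 1014 and 204 CPM in plasmacytoid dendritic-like cells of tumors 1 and 3. Its log2 difference, 1.70 (SE 0.40, edgeR adjusted p = 0.00356), was the smallest among the 9 called genes, and the call was lost without tumor 2 (edgeR adjusted p = 0.0989) or tumor 3 (edgeR adjusted p = 0.0549). Lgals3, the sugar-binding galectin-3, was at 2088, 773 and 1009 CPM in macrophage-like cells and at 1153, 424 and 221 CPM in neutrophil-like cells. Within each tumor the macrophage-like value was the higher of the pair, but the ranges over tumors overlapped and Lgals3 was called higher than the mean of the other classes in macrophage-like (log2 difference 4.45, SE 0.50, edgeR adjusted p = 5.69e-07) and neutrophil-like cells (log2 difference 3.25, SE 0.54, edgeR adjusted p = 5.66e-05). In plasmacytoid dendritic-like cells, at 623 and 131 CPM in tumors 1 and 3, it was called as well (log2 difference 2.57, edgeR adjusted p = 0.0140), where 5.71% of genes were called higher. The direct difference between macrophage-like and neutrophil-like cells was not called (log2 difference 1.10, SE 0.76, edgeR adjusted p = 0.51).

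Spp1, which encodes the secreted protein osteopontin, was at 85.7, 142 and 334 CPM in macrophage-like and at 36.5, 8.83 and 147 CPM in neutrophil-like cells. Both classes were called higher than the mean of the others, with log2 differences of 5.86 (SE 0.49, edgeR adjusted p = 1.21e-08) and 3.86 (SE 0.71, edgeR adjusted p = 2.02e-04), the second where 18.1% of genes were called higher. The difference between the 2 classes was not called in the unpaired fit (log2 difference 1.84, edgeR adjusted p = 0.164), where 2.19% of genes were called higher, and was called with tumor as a block (edgeR adjusted p = 0.0199), where 5.87% were. The neutrophil-like Spp1 counts rest on 11, 1 and 8 UMIs in tumors 1, 2 and 3. In tumor 3, 186 of the 234 Spp1 UMIs of kept cells lay in 3 macrophage-like cells, nearly all of them in 1 cell. The macrophage-like level of tumor 3 therefore rests mostly on 1 cell, and that of tumor 1 in part on another, as given below for the subsets.

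Fabp5, a cytosolic carrier of fatty acids, set itself apart from the other 9 genes. Macrophage-like cells had 799, 1365 and 1332 CPM, but tumor-like cells had 886, 1507 and 1467 CPM, higher in each of the 3 tumors. The difference between them was far inside its error (log2 difference -0.16, SE 0.95, edgeR adjusted p = 0.936). The other 9 members were all called higher in macrophage-like than in tumor-like cells, where 18.9% of genes were. Tumor-like cells held 13.1%, 70.2% and 78.9% of the Fabp5 UMIs of tumors 1, 2 and 3. They were 18.9%, 70.9% and 79.5% of the kept cells. Of the 12628163, 2740537 and 5215401 UMIs of all genes in kept cells, tumor-like cells had 635258, 1666300 and 3815800.

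**Figure D2:**
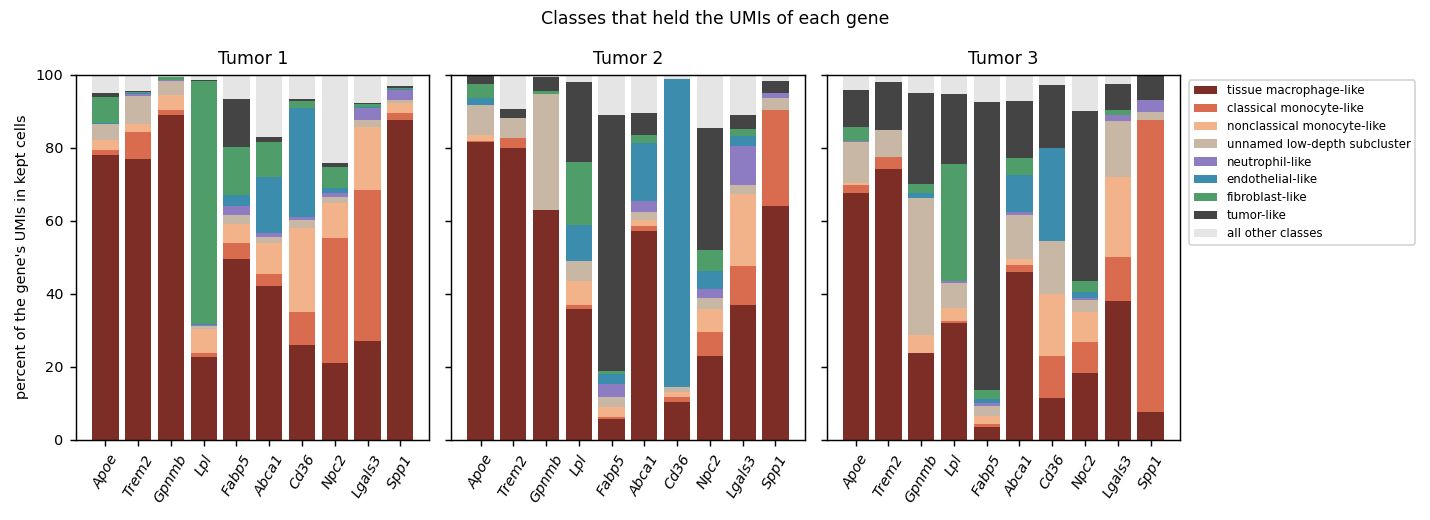
Percent of the UMIs of each gene found in each class or macrophage subset, in tumors 1 to 3. Tissue macrophage-like cells held 77.9%, 81.5% and 67.6% of the Apoe UMIs. Fibroblast-like cells held 66.6% of the Lpl UMIs of tumor 1, and endothelial-like cells 84.4% of the Cd36 UMIs of tumor 2. Tumor-like cells held 78.9% of the Fabp5 UMIs of tumor 3, where they were 79.5% of the kept cells.

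The Fabp5 level of lymphocytes moved with the tumor. B cell-like cells had 53.6, 1598 and 1683 unscaled CPM in tumors 1, 2 and 3, and T cell-like cells 74.9, 1585 and 1695. After each cell was thinned to 500 UMIs, Fabp5 was found in 4.17% of T cell-like cells of tumor 1 (5 of 120, exact 95% interval 1.37 to 9.46%), 63.0% in tumor 2 (29 of 46, 47.5 to 76.8%) and 56.9% in tumor 3 (37 of 65, 44.0 to 69.2%). The summed tumor-like markers in the same T cell-like cells were 107, 853 and 1261 CPM, and their part in the Fabp5 level was not tested. Tissue macrophage-like cells of tumor 1 combined 2057 unscaled CPM of Fabp5 with 27.5 CPM of tumor-like markers, so that their Fabp5 level stood above the 1217 CPM of the tumor-like cells of that tumor. GENCODE lists a processed copy of Fabp5 named Fabp5l2, which has no entry of its own in the count files, so that reads shared with such copies would make the Fabp5 count uncertain.

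**Figure D3:**
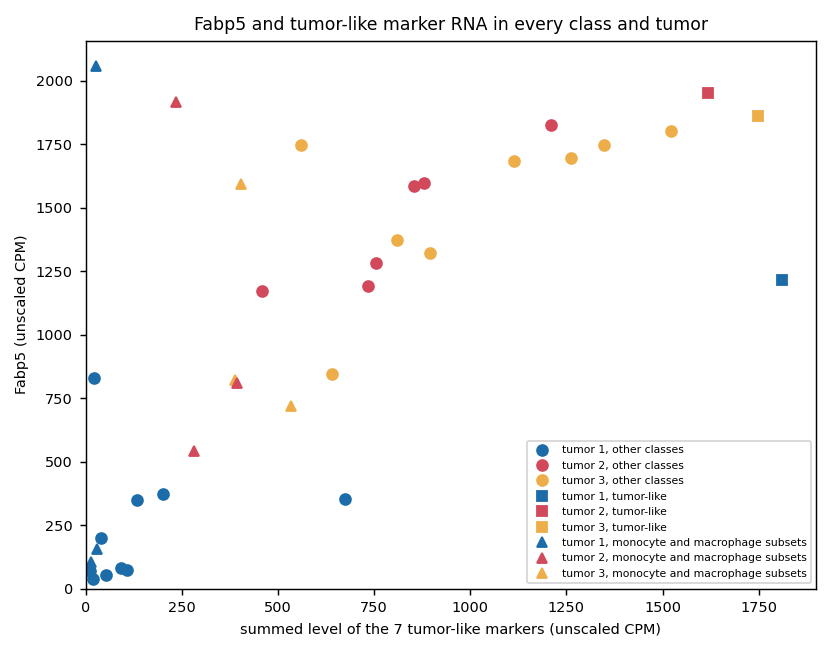
Fabp5 (vertical axis) against the summed level of the 7 tumor-like markers (horizontal axis), both in unscaled CPM, for every class and tumor with at least 10 cells. Colors mark tumors 1 to 3, squares tumor-like cells, triangles the monocyte and macrophage subsets and circles the other classes; the 3 tissue macrophage-like sums lie at 2057, 1917 and 1595 CPM of Fabp5.

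The second question was how the members divided between monocytes and macrophages. Of the 9 members that passed the filter on low counts among the 3550 genes of this fit, 7 were called higher in tissue macrophage-like cells than in the mean of the 2 monocyte-like subsets, where 5.75% of all genes were called higher. The median log2 difference was 3.91 over the 9 members and -0.02 over all genes tested. Cd36 did not pass the filter. Trem2, Gpnmb, Lpl and Abca1 reached its level only in tissue macrophage-like sums, as their monocyte-like sums were all lower. These genes were therefore tested because they were high in the tissue subset. The 7 calls and the median lean on that, and are no independent support for the subset. In classical monocyte-like cells 1 member was called lower, where 0.113% of genes were, and in nonclassical monocyte-like cells 2 members, where 1.61% were. With tumor as a block these counts were 8 higher, 4 lower and 5 lower, beside 9.58%, 2.65% and 5.38% of all genes.

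Apoe was at 95.3, 501 and 1354 CPM in classical monocyte-like cells of tumors 1, 2 and 3, and at 222, 645 and 107 CPM in nonclassical ones. In tissue macrophage-like cells it reached 9478, 53009.8 and 20495 CPM. Every tissue value lay above every monocyte value, and the log2 difference was 5.93 (SE 0.81, n = 3 tumors, edgeR adjusted p = 0.00155). Within tumors the ratio to the classical subset was 99.4, 106 and 15.1, and to the nonclassical subset 42.6, 82.2 and 191.5. The classical sum of tumor 3 held 118 Apoe UMIs in 4 of 16 cells, 79 of them in 1 cell, and its unscaled level was 1347 CPM with that cell and 471.5 CPM without it. Of the 118, 115 lay in 3 cells that came from a cluster led by C1qc and C1qa, whereas the other 13 cells held 3. In tumor 2, 12 of the 25 Apoe UMIs of the classical sum lay in 1 of 10 cells. The 81, 15 and 30 tissue macrophage-like cells made up 4.23%, 1.23% and 1.19% of the kept cells and held 77.9%, 81.5% and 67.6% of all Apoe UMIs in them. Of the 12628163, 2740537 and 5215401 UMIs of all genes in kept cells, they had 1419720, 136160 and 199997.

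Trem2 was likewise highest in tissue macrophage-like cells in each tumor. Between the monocyte-like subsets it was higher in the classical one in each tumor, whereas Apoe was so only in tumor 3. Trem2 was at 249, 509 and 368 CPM in tissue macrophage-like cells and at 13.1, 40.1 and 34.4 CPM in classical monocyte-like cells. In nonclassical ones it was at 4.60, 0 and 0 CPM, where tumor 1 had 9 UMIs and tumors 2 and 3 had none. The log2 difference for the tissue subset was 5.51 (SE 0.48, edgeR adjusted p = 1.53e-04). Nonclassical monocyte-like cells were called lower in Trem2 (log2 difference -4.61, SE 0.64, edgeR adjusted p = 0.00715), a call lost without tumor 2 (edgeR adjusted p = 0.0871) or tumor 3 (edgeR adjusted p = 0.0794), whereas the classical subset was not (edgeR adjusted p = 0.828). Against the limit that 3 UMIs would set, the tissue level was at least 22.3-fold higher than the nonclassical level in tumor 2 and at least 30.8-fold higher in tumor 3.

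Abca1 and Lpl were also higher in tissue macrophage-like cells in every tumor. Abca1 was at 224, 644 and 267 CPM there and between 6.69 and 40.1 CPM in the 6 monocyte-like sums (log2 difference 4.44, SE 0.53, edgeR adjusted p = 5.75e-04). Lpl was at 261, 280 and 326 CPM, against 8.18 to 20.1 CPM in classical and 23.4 to 50.6 CPM in nonclassical monocyte-like cells (log2 difference 3.91, SE 0.31, edgeR adjusted p = 7.59e-05). Lpl was the 1 member called lower in the classical subset (log2 difference -3.50, SE 0.44, edgeR adjusted p = 0.015), and that call was lost without any 1 of the 3 tumors, with edgeR adjusted p from 0.106 to 0.207.

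Fabp5 was called higher in the tissue subset as well, at 2194, 2212 and 1703 CPM, but close to the threshold (log2 difference 2.08, SE 0.55, edgeR adjusted p = 0.048), and the call was lost without tumor 2 (edgeR adjusted p = 0.25) or without tumor 3 (edgeR adjusted p = 0.071). In tumor 1, where tumor-like marker RNA was lowest, the level was 20.3 times that of classical and 13.8 times that of nonclassical monocyte-like cells, and in tumor 3 these ratios were 2.06 and 2.65.

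Npc2 and Lgals3 separated nonclassical monocytes from the other subsets more than macrophages from monocytes. Npc2 was at 1109, 1178 and 838 CPM in the tissue subset, at 989, 782 and 826 CPM in the classical and at 350, 219 and 241 CPM in the nonclassical subset. It was called lower in nonclassical monocyte-like cells (log2 difference -1.78, SE 0.25, edgeR adjusted p = 0.0072) and, by a smaller step, higher in tissue macrophage-like cells (log2 difference 1.08, SE 0.22, edgeR adjusted p = 0.015). Both Npc2 calls were lost without tumor 2 and without tumor 3 (edgeR adjusted p = 0.15 and 0.33 for the nonclassical subset, 0.35 and 0.39 for the tissue subset). Lgals3 was at 2212, 1390 and 1473 CPM in the tissue, 1831, 962 and 1009.9 CPM in the classical and 965, 488 and 532 CPM in the nonclassical subset. It had this order within each of the 3 tumors. The tissue subset was called for Lgals3 with tumor as a block (log2 difference 0.90, edgeR adjusted p = 0.0013) and not without it (log2 difference 0.86, SE 0.29, edgeR adjusted p = 0.12), and so was the lower level of the nonclassical subset (blocked log2 difference -1.14, edgeR adjusted p = 7.18e-04, against 0.0916 without the block).

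**Figure D4:**
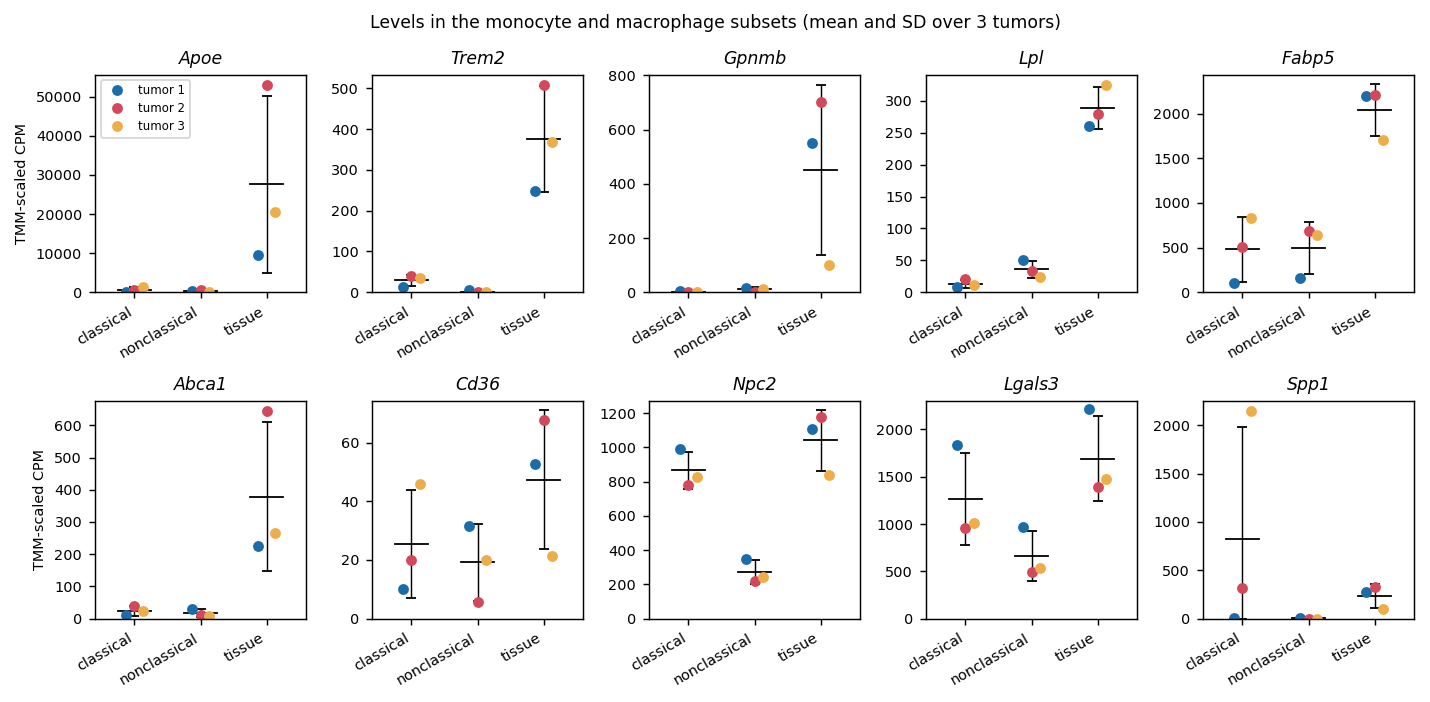
TMM-scaled CPM of each gene in the classical monocyte-like, nonclassical monocyte-like and tissue macrophage-like subsets; points are tumors 1 to 3, horizontal lines the mean and bars 1 SD over the 3 tumors, cut at 0. For Apoe, Trem2, Gpnmb, Lpl, Fabp5 and Abca1 every tissue point lies above every monocyte point, and the Spp1 point of tumor 3 in the classical subset stands at 2146 CPM.

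Cd36 was low throughout the macrophage-like cells. It was at 52.6, 67.8 and 21.3 CPM in the tissue subset, on 70, 8 and 4 UMIs, at 10.2, 20.1 and 45.9 CPM in the classical and at 31.7, 5.61 and 20.1 CPM in the nonclassical subset. The 3 ranges overlapped.

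Gpnmb and Spp1, like Apoe in the classical sum of tumor 3, had subset sums in which 1 cell held most of the UMIs. Gpnmb was at 551, 704 and 101 CPM in tissue macrophage-like cells and at most 17.4 CPM in the monocyte-like sums (log2 difference 5.97, SE 0.66, edgeR adjusted p = 5.01e-04). One cell of tumor 1 (46047 UMIs in all) held 394 of the 733 Gpnmb UMIs of its sum, or 53.8%, and the unscaled level was 516 CPM with it and 247 CPM without it. That cell also held 141 of 368 Spp1 UMIs and 53 of 332 Trem2 UMIs.

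Spp1 was at 276.5, 331 and 96.1 CPM in the tissue subset, at 3.27, 321 and 2146 CPM in the classical and at 5.62, 0 and 0 CPM in the nonclassical subset. In tumor 3, 184 of the 187 Spp1 UMIs of the classical subset lay in 1 of 16 cells. The 3 cells from the cluster led by C1qc and C1qa held 186 of them and the other 13 cells 1. Conventional dendritic-like markers stood at 354 CPM in this sum, against 63.2 and 21.7 CPM in the classical sums of tumors 1 and 2, and their part in the result was not tested. The high classical Spp1 level of tumor 3 therefore rests on 1 cell, and in tumor 2 all 16 lay in 1 of 10 cells. GENCODE lists Gm42793 on the same strand over part of Spp1, with no entry of its own in the count files, so reads of the 2 cannot be told apart. Without those top cells the unscaled Spp1 level of the classical subset was 1.18, 0 and 38.6 CPM, against 165, 118 and 41.9 CPM for the tissue subset treated the same way. Neither the tissue (log2 difference 2.02, SE 1.25, edgeR adjusted p = 0.45) nor the classical subset (log2 difference 4.73, SE 1.25, edgeR adjusted p = 0.13) was called for Spp1. When the cell with the most Spp1 UMIs and the cell with the most Gpnmb UMIs were left out of each tumor, an alternative added after the data were seen, the classical difference of Spp1 was 1.60 and the tissue difference 3.02, neither of them called (edgeR adjusted p = 0.88 and 0.12), while Gpnmb was still called in the tissue subset (log2 difference 5.39, edgeR adjusted p = 7.15e-04).

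**Figure D5:**
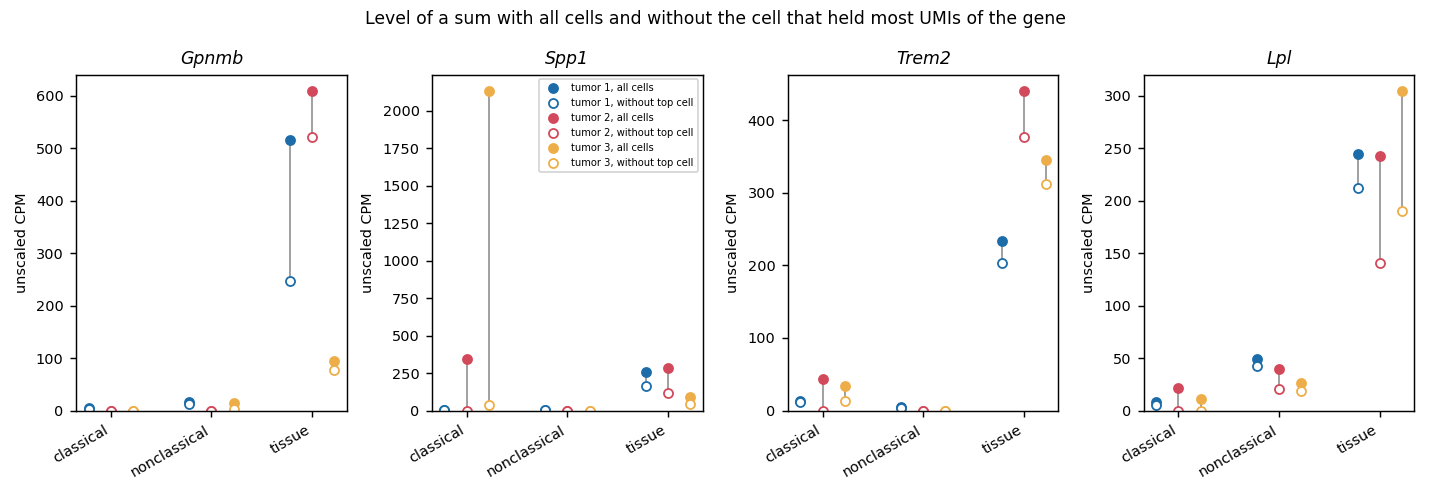
Unscaled CPM of Gpnmb, Spp1, Trem2 and Lpl in the 3 subsets of tumors 1 to 3, with all cells (filled) and without the cell that held most UMIs of the gene (open). Spp1 of the classical subset drops to 38.6 CPM in tumor 3, and Gpnmb of the tissue subset to 247 CPM in tumor 1, whereas Trem2 of the tissue subset keeps 203, 376 and 312 CPM.

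Single cells were compared at equal depth, since tissue macrophage-like cells had a median of 12454 UMIs against 10546 in classical and 5584 in nonclassical monocyte-like cells. Thinned to 3000 UMIs, 119 tissue, 248 classical and 321 nonclassical cells remained and 7, 12 and 32 shallower ones were left out. Apoe was found in 73.9% of tissue cells (88 of 119, exact 95% interval 65.1 to 81.6%), 15.3% of classical (11.1 to 20.4%) and 23.1% of nonclassical cells (18.6 to 28.1%). Trem2 was found in 42.0% (33.0 to 51.4%), 3.63% (1.67 to 6.78%) and 0.312% (0.00789 to 1.72%), Abca1 in 47.9%, 3.23% and 7.79%, and Gpnmb in 32.8%, 0.806% and 1.56%. By tumor, Apoe was found in 48 of 78, 13 of 13 and 27 of 28 tissue cells, so that nearly all cells without it came from tumor 1, and Trem2 in 30 of 78, 6 of 13 and 14 of 28. Intervals cover counting error only. As a background, Apoe was found in 5.24% of tumor-like cells and 3.90% of T cell-like cells at 500 UMIs, against 62.7% of tissue macrophage-like cells thinned alike, and Trem2 in 0 of 231 T cell-like cells, against 16.7% of tissue macrophage-like cells thinned alike. A count of 0 of 231 allows a share of up to 1.30% of cells with a Trem2 UMI at this depth and sets no limit on cells that express it.

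The members were counted per cell at the same 3000 UMIs. Tissue macrophage-like cells had a median of 5 of the 10 members, and 72 of 119 (60.5%) had 5 or more, against 4 of 248 classical (1.61%) and 6 of 321 nonclassical cells (1.87%). The share with 5 or more was 50%, 84.6% and 78.6% in tumors 1, 2 and 3, so tissue cells of tumor 1 had it least often. The cells in which the members were found overlapped in part, and a cell without a UMI at this depth may still express the gene. In tumor 1, which held 30 of the 31 tissue cells without Apoe, 27 of the 48 Apoe+ cells had Trem2 and 3 of the 30 without Apoe had it. For Gpnmb these counts were 15 of 48 and 10 of 30. Of the Trem2+ cells 14 of 30, 4 of 6 and 6 of 14 had Lpl in tumors 1, 2 and 3, against 6 of 48, 1 of 7 and 3 of 14 of the cells without Trem2. These are descriptions of the cells of single tumors and carry no test.

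The 261 cells of the unnamed subcluster (142, 47 and 72 in tumors 1, 2 and 3) had 3003, 8494 and 5634 unscaled CPM of Apoe, above both monocyte-like subsets in each tumor and below the tissue macrophage-like cells. Their tumor-like marker level was 11.7%, 74.0% and 89.4% of that in tumor-like cells. Gpnmb had 32, 42 and 30 UMIs in them, with 33 of the 42 in 1 cell of tumor 2. Their RNA content was too low for a comparison at 3000 UMIs, which 14 of the 261 reached.

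The regulatory sequence next to 4 genes that were high together in tissue macrophage-like cells is shown from RefSeq (GRCm38.p6), 250 bases before the transcript start for Trem2, Apoe and Abca1 and 30 bases around a motif for Gpnmb, read along the gene's strand. Both strands of each window, from 250 bases before to 50 bases after the start, were searched for 5 motifs, and capitals mark the matches. CACGTG is an E-box bound by factors of the MITF and TFE family. The letters CATGTG form a related E-box. TGANTCA, where N is any base, covers TGACTCA, the AP-1 site, and other letters in the middle. The TATAAA letters are those of a TATA box. A site of the PU.1 type was searched as GAGGAAGT.

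Trem2, chr17:48346151-48346400, plus strand: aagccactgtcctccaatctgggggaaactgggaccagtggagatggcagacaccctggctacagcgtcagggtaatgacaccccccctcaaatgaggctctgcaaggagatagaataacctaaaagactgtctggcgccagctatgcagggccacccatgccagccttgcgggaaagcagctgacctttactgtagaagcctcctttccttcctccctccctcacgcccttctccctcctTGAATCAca
Gpnmb, chr6:49036515-49036544, plus strand: ccaggggcaagTGACTCAtgagcacgagtt
Apoe, chr7:19699189-19699438, minus strand: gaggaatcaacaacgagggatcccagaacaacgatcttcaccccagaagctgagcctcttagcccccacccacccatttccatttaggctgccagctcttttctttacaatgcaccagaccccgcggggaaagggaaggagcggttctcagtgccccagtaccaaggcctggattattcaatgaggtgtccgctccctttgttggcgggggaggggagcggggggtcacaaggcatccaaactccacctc
Abca1, chr4:53159896-53160145, minus strand: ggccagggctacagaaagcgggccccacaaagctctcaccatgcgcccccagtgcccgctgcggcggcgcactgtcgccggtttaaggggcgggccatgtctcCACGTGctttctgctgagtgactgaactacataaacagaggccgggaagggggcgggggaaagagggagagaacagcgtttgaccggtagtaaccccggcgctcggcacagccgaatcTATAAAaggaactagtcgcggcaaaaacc

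Trem2 and Gpnmb each had 1 TGANTCA match close to the start, which began 9 bases before the start of Trem2 and at base 9 after the RefSeq start of Gpnmb. The Gpnmb match has the letters of the AP-1 site and the Trem2 match, TGAATCA, has not. That motif was in 7.81% of all 32851 windows. Abca1 had the CACGTG letters, found in 7.15% of windows, and TATAAA, found in 13.6%. The Apoe window shown had none of the 5, and another RefSeq window of Apoe had TATAAA. RefSeq windows were found for 8 of the 10 genes. None was found for Lpl and Fabp5. A match is a description of letters and not a bound site, and none of these data measured binding.

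Positions in GENCODE M21 (GRCm38) for the other members were chromosome 8, 68880491 to 68907448 for Lpl, chromosome 3, 10012548 to 10016607 for Fabp5, chromosome 5, 17781690 to 17888801 for Cd36, chromosome 12, 84754562 to 84773152 for Npc2, chromosome 14, 47367751 to 47386160 for Lgals3 and chromosome 5, 104435118 to 104441050 for Spp1.

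Other genes of lipid handling were read from lists by role. In macrophage-like cells all 5 tested uptake receptors were called higher (of 8 listed), among them Msr1 and Marco, 10 of 11 tested genes of lysosomal lipid breakdown (of 14), 5 of 9 efflux and LXR genes (of 12), 6 of 13 genes of droplets and fatty acids (of 16) and 9 of 11 genes of Trem2 signaling or known to go with it (of 12, of which Clec7a is not analysed here). In that fit 12% of all 7808 genes tested were called higher. With tumor as a block 5, 11, 5, 8 and 11 genes of these 5 lists were called higher, where 20.4% of all genes were, and 1 gene of the droplet list lower, where 1.11% were. Of the 8 tested genes of cholesterol synthesis (of 13) 0 were called in edgeR without or with the block and 0 had an unadjusted p under 0.05, and their median log2 difference was 0.13, beside 0.23 over all genes. The genes with the largest differences were Pltp, a phospholipid transfer protein, at 525 ± 255 CPM (SD, n = 3; log2 difference 6.10, edgeR adjusted p = 1.21e-08), Pparg, a lipid-sensing nuclear receptor (log2 difference 5.57, edgeR adjusted p = 6.58e-07) and Nr1h3, which encodes LXR alpha (log2 difference 5.41, edgeR adjusted p = 1.40e-07).

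Between subsets, 9 of the 11 tested genes of the lysosomal list were called higher in tissue macrophage-like cells, where 5.75% of all genes were, with a median log2 difference of 1.70 beside -0.02 over all genes. The other lists had 1 of 5 (uptake), 2 of 8 (efflux and LXR), 1 of 8 (droplets and fatty acids), 0 of 2 (cholesterol synthesis) and 4 of 10 (Trem2 signaling) called higher and 0 lower in edgeR, and 1 of the 2 cholesterol synthesis genes had an unadjusted p under 0.05. With tumor as a block 9 lysosomal, 2 uptake, 5 efflux and LXR, 2 droplet and 5 Trem2 signaling genes were called higher, where 9.58% of all genes were, and 1 uptake and 1 cholesterol synthesis gene lower, where 7.46% were. The lists were not tested against each other. Cd63 and Ctsd, which encode a membrane protein and a protease of lysosomes, had the largest differences there together with the scavenger receptor Stab1 (log2 differences 5.10, 3.89 and 4.44, edgeR adjusted p = 5.75e-04, 4.55e-04 and 0.0016). Pparg was called higher in nonclassical monocyte-like cells, at 157 ± 44.5 CPM against 12.8 ± 11.1 CPM in the classical and 46.8 ± 25.9 CPM in the tissue subset (SD, n = 3). The log2 difference from the mean of both was 2.51 (edgeR adjusted p = 0.012), where 1.41% of genes were called higher. Apoc1 and Msr1 were called lower in the nonclassical subset (log2 differences -3.17 and -2.48, edgeR adjusted p = 0.0329 and 0.0238).

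Across the 30 sums of a class in a tumor, which share libraries and differ in depth, the member pairs with the highest Pearson's r of log2 CPM were Apoe with Lpl (0.79) and Apoe with Trem2 (0.76). The lowest was Fabp5 with Npc2 (-0.38). Outside the members, Trem2 was most like Clec4a1 (0.84), Cd36 most like Lpar6 (0.81) and the endothelial gene Pecam1 (0.80), Spp1 most like Cd244 (0.86) and Fabp5 most like Nt5dc2 (0.93).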

How the data were processed

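Whole tumors of 3 TH-MYCN mice, 1 group, were profiled by 10x 3' single-cell RNA-seq. The deposited raw files hold UMI counts per gene and barcode, which the authors made against mm10 with Cell Ranger 3.1.0, as the submitters' processing notes name it. The deposited normalized files hold the natural log of a corrected count plus 1 for the cells the authors kept, after their filters in Seurat (3 and 3.1.5 are named). The kept barcodes were taken from these files, and the exponential minus 1 served as corrected counts in an alternative. How the correction was made is not given in the sources used here.

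Kept cells were normalized and clustered in Seurat 5.3.0 (2000 variable genes, 30 dimensions, 20 neighbors, resolution 1 for classes and 0.5 for subsets), with 84 genes, the members and the lipid lists among them, held out. A cluster was named from at least 3 markers with a fold of at least 2 and found in at least 10% of its cells. A cluster with a median depth far below its samples' and no marker of the name among its top 10 genes stayed unnamed. No doublets were removed beyond what the authors had removed. The members and lists were chosen with earlier results of these data known. The raw counts of each class were added up within a tumor where it had at least 10 cells, giving 30 class sums and 9 subset sums, and tested with edgeR 4.0.16 (quasi-likelihood, TMM, filterByExpr, Benjamini-Hochberg over all genes tested). A class with 1 sum was assumed to vary like the others. With 3 tumors, p-values rest only on the spread between sums of these tumors, estimated over all classes or subsets of a fit together. They do not measure the spread of 1 class alone. Without tumor as a block, sums of the same tumor were treated as independent. Besides the members, up to 3 genes per direction and comparison were named from the lists, by size of the log2 difference among those called with a level of at least 50 CPM. They had to change the same way in every tumor compared. For likeness, the 3 genes with the highest Pearson's r per member were listed, among genes with a mean of at least 20 CPM. Msr1 and Marco in macrophage-like cells were named after their values were seen. One gene that the rule would name is not reported here.

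Sums of the same tumor come from the same animal. The deviations of such sums from the mean of their class had correlations of 0.0138 to 0.651 (median 0.289, 118 pairs) against a median of -0.214 for 234 pairs of other tumors, and for subsets at 0.150 to 0.665 (9 pairs). A fit with tumor as a block is therefore given where it changes a call or a count of calls. Shares of cells were read after thinning each cell to 500 or 3000 UMIs, with exact binomial intervals. On simulated data the share of calls made on unchanged genes was above the level the adjustment aims at. Alternatives were DESeq2 1.42.0, no filter, the corrected counts, other cell minimums, other clustering and leaving out each tumor. R 4.3.3, Python 3.11.15, numpy 2.4.6, scipy 1.17.1 and pandas 2.3.3 were used.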

Additional observations from a re-analysis of the deposited data

Results flagged for a closer look

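The barcodes that the authors did not keep were used in no comparison, and UMIs of all 10 members were found in them. They numbered 1343, 3106 and 3523 in tumors 1, 2 and 3, with median mitochondrial shares of 27.9%, 35.0% and 37.7% against 3.17%, 3.12% and 2.44% in kept cells. Over the 3 tumors these barcodes held 16228 UMIs of Apoe, 332 of Trem2, 763 of Gpnmb, 1645 of Lpl and 33960 of Fabp5. They also held 734 UMIs of Abca1, 197 of Cd36, 6839 of Npc2, 2075 of Lgals3 and 622 of Spp1. In tumor 1 the share of a member's UMIs that lay in them ran from 10.6% (Lgals3) to 53.4% (Spp1), beside 27.1% of all UMIs. In tumor 2 it ran from 10.5% (Cd36) to 86.1% (Lpl), beside 87.4%, and in tumor 3 from 28.9% (Spp1) to 75.3% (Gpnmb), beside 74.0%.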

How the results depend on the processing

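Of 475 repeats of single-member comparisons under the alternatives, 412 kept their direction and side of the threshold, 26 passed it newly, 27 lost it and 10 reversed. Members called higher in macrophage-like cells (9) numbered 8 to 9 without 1 tumor, and those in tissue macrophage-like cells (7) 5 to 8. All genes called in macrophage-like cells (952) numbered 522 with DESeq2, 1945 with no filter, 1680 with tumor as a replicate block, 575 with the corrected counts and 756 to 1121 without 1 tumor. In the tissue subset (242) they numbered 605 with the block, 156 with sums of at least 20 cells, 137 at lower resolution and 93 to 196 without 1 tumor. In the classical subset (13) they numbered 77 with DESeq2, 99 with no filter, 170 with the block, 64 with corrected counts, 0 at 20 cells (edgeR, 614 at an unadjusted p under 0.05), 38 at lower and 7 at higher resolution and 0 to 5 without 1 tumor. Members lower there (1) numbered 2 with DESeq2, 2 with no filter, 4 with the block, 2 with corrected counts, 0 at 20 cells, 0 at lower or higher resolution, 0 with no gene held out and 0 to 0 without 1 tumor, and 1 was higher with no filter. In the nonclassical subset (107) all genes called numbered 162 with no filter, 466 with the block, 194 with corrected counts, 51 at 20 cells, 210 with no gene held out and 0 to 96 without 1 tumor. Members lower there (2) numbered 6 with DESeq2, 4 with no filter, 5 with the block, 4 with corrected counts, 0 at higher resolution and 0 to 5 without 1 tumor. Reversed log2 differences were 0.99 for Trem2 in the classical subset without tumor 1 (-1.15 to 0.99 without 1 tumor) and 1.31 at higher resolution, -2.92 for Spp1 there at 20 cells and -2.41 at higher resolution, and 0.079 for Fabp5 in the nonclassical subset at 20 cells. At higher resolution they were 0.64 for Apoe, 0.87 for Lpl, 1.15 for Fabp5 and 0.12 for Abca1 in the nonclassical and -0.044 for Lgals3 in the tissue subset. At higher resolution the subsets themselves were others. A conventional dendritic-like subset of 37 cells was named, 26 of them in tumor 1. The subcluster of 185 cells with a median of 1349 UMIs was part of the tissue subset. The mean of the other subsets there is therefore not the one of the main comparison. The cause of these shifts was not tested. Depth limits the monocyte-like sums of tumors 2 and 3, which rest on 10 to 61 cells.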
